A study of Mus musculus with 12 samples.

Results

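Gfi1 and its relative Gfi1b were each measured by several exon-level probe sets on 12 Affymetrix Mouse Gene 1.0 ST arrays, and all probe sets that the platform annotation pairs with 1 of these genes alone were taken. This gave 5 probe sets of Gfi1 and 6 of Gfi1b, 11 of the 105661 in the table. The RNA came from granulocyte-monocyte precursors (GMPs), the marrow progenitors of granulocytes and monocytes, sorted by flow cytometry from C57BL/6 mice. Mice carried a human GFI1 knock-in with a variant sequence (SNP), a human GFI1 knock-in with the common sequence (wtKI), a Gfi1 knock-out (KO) or the wild-type mouse gene (WT), with 3 arrays per group. The sources used here do not give how the alleles were built, which exons they remove or how old the mice were. Nothing in the labels ties the arrays to separate mice, and p-values then reflect only how far these samples scatter, which may be technical.

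Gfi1 and Gfi1b are zinc-finger repressors of transcription. Both carry an amino-terminal SNAG domain, which recruits corepressors such as the histone demethylase Kdm1a with Rcor1 and histone deacetylases, and carboxy-terminal zinc fingers that bind DNA at sites with an AATC core. Gfi1 acts in stem cells, lymphocytes and granulocyte precursors, where it favours the granulocyte over the monocyte fate, while Gfi1b is known for its roles in red cells and megakaryocytes. Each has been described to repress its own gene and that of the other.

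Mouse Gfi1 lies on chromosome 5, from 107716655 to 107725805, and Gfi1b on chromosome 2, from 28609450 to 28621982, both on the minus strand (GRCm38.p6, RefSeq). The 250 bases before each annotated start are shown because both genes are described as targets of their own products, and the AATC core on either strand (AATC or GATT as printed) is in capitals. The first is Gfi1b at chr2:28621983-28622232, the second Gfi1 at its upstream start, chr5:107725806-107726055, and the third Gfi1 at its downstream start, chr5:107724344-107724593.
Gfi1b: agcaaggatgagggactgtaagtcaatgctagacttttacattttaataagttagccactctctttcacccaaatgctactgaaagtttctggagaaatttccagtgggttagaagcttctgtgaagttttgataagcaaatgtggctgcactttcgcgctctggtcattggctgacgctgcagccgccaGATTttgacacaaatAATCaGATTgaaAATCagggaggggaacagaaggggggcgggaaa
Gfi1 upstream start: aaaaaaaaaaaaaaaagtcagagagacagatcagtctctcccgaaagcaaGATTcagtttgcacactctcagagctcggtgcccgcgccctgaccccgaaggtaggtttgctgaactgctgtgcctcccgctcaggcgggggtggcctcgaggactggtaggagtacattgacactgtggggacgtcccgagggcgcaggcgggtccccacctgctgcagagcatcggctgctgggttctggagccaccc
Gfi1 downstream start: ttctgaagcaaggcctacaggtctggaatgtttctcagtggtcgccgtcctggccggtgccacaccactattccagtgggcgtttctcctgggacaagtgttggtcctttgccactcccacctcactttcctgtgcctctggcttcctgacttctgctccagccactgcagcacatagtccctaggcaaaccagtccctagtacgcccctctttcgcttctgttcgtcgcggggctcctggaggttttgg
The Gfi1b window held 4 copies of the core, close together near the start, and 7.04% of the 32851 RefSeq promoter windows of this length held at least 4. The upstream Gfi1 window held 1, where 69.0% of windows held at least 1, and the downstream window held none, like 31.0% of windows. These matches are letters in a window and not measured binding sites.

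The values are log2 signals, so a difference of 1 is a doubling. All 7 measured GMP markers are given as ranges over the 12 arrays. Mpo, myeloperoxidase of the primary granules, lay between 10.70 and 11.58 on the 12 arrays, and the progenitor antigen Cd34 between 8.55 and 10.78. Ctsg lay between 9.57 and 11.58, Prtn3 between 7.13 and 9.08 and Fcgr3 between 6.95 and 9.06. Kit lay between 6.29 and 8.97 and Csf1r between 7.28 and 8.43. The lowest values of Mpo, Cd34, Ctsg, Prtn3 and Kit were on SNP 1. KO 1 and SNP 1 stood apart. Their median correlations with the other arrays were 0.701 and 0.633, against 0.836 to 0.886 for the other 10. The 7 measured GMP markers had a median 1.78 below the WT mean on SNP 1, where late neutrophil, erythroid and B-lineage markers were 3.98, 3.38 and 2.72 above it, the last on 7 of 7 genes. By the Y-linked gene Eif2s3y, WT 3, wtKI 2 and wtKI 3 came from female mice and the other 9 arrays from males. Each array's 5th percentile, a mark of background here, was from 4.39 to 5.65.

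The table holds no probe set that stays under 6.14 on every array, and some members reached that value in few groups. Probe set 10532126 of Gfi1 reached it on 3 KO arrays and 1 WT array, 10532129 on the 3 SNP and 3 wtKI arrays, and 10532130 on 1 SNP array alone. These 3 are thus in the table through the groups where they were high, so a difference between those groups and the rest was partly set by their presence, and their tests and counts below describe the values and support nothing more. Of the other members, 10481309 of Gfi1b reached it on 1 SNP, 1 wtKI and 2 KO arrays and on 0 WT arrays, and the remaining 7 on 9 to 12 arrays. The difference of 10481309 from WT was thus also partly set by its presence, and its tests and counts against WT support nothing more. Other probe sets of either gene are not analysed here.

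No Gfi1 probe set was detectably lower in the knock-out, and most had higher values there than in WT. In KO, 3 of the 5 Gfi1 probe sets were above WT and 2 below, and none passed the test (limma on all 105661 probe sets with Benjamini-Hochberg adjustment, threshold 0.05). Probe set 10532127 was at 6.99, 7.20 and 6.93 on the KO arrays, against 6.64, 5.90 and 6.45 on the WT arrays. All 3 KO values were above all WT values, and the difference was 0.71 ± 0.26 (SE; unadjusted p = 0.0186, limma adjusted p = 0.955). Probe set 10532126 was at 6.43, 6.74 and 6.58 on KO, against 5.08, 5.78 and 6.29 on WT, again without overlap (0.87 ± 0.40, limma adjusted p = 0.955). The brightest of the set, 10532125, was at 9.94, 10.39 and 10.17 on KO, against 9.25, 10.02 and 9.85 on WT. These groups overlapped (0.46 ± 0.41, limma adjusted p = 0.958). Probe set 10532129 was at 5.63, 5.63 and 5.47 on KO, against 5.59, 5.33 and 5.85 on WT, and did not differ beyond its spread (-0.0071 ± 0.24, limma adjusted p = 1.00). Probe set 10532130 was at 4.27, 4.35 and 4.82 on KO, against 4.66, 4.22 and 5.95 on WT, with a difference of -0.46 ± 0.47 (limma adjusted p = 0.96). It was near background in both groups.

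Over both genes, 4 of the 11 probe sets did not overlap between KO and WT, where 11.7% of all probe sets did not. At an unadjusted p under 0.05 there were 3 of 11, where 4.95% of all were, and limma called 0 of the 11 and 0.00284% of all. Both the count without overlap and that by unadjusted p include 10481309, and the former also 10532126. Their differences were partly set by their presence in the table. Summarised over its probe sets by median polish, Gfi1 was at 6.33, 6.78 and 6.57 on KO, against 5.75, 5.71 and 6.26 on WT. The gene value was 0.66 ± 0.21 above WT without overlap (95% interval 0.19 to 1.12, limma adjusted p = 0.802 over 14199 genes), and 0.77 with KO 1 and SNP 1 left out (limma adjusted p = 0.287). Weighting the arrays by their quality made it 0.78 with limma adjusted p = 0.0174, under a setting in which 493 of the 14199 genes passed, against 0 without the weights. The positions of the probe sets relative to the deleted part are not known here, so they do not check the KO label. In sorted cells a higher share of cells that make a transcript and more transcript per cell cannot be told apart.

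The knock-in arrays differed from the KO and WT arrays in single Gfi1 probe sets, lower in one and higher in others relative to the rest of the gene. The array is made for mouse sequence, and how well each probe set detects human GFI1 is not known here. These signals therefore do not compare transcript levels between the human and mouse alleles. Probe set 10532126 was at 3.83, 2.89 and 3.26 on the SNP arrays and 2.36, 3.65 and 2.78 on the wtKI arrays, against 6.43, 6.74 and 6.58 on KO and 5.08, 5.78 and 6.29 on WT. Every knock-in array was below every KO and WT array. The mean over both knock-in groups minus that over KO and WT was -3.02 ± 0.29 (95% interval -3.65 to -2.39), and its unadjusted p of 6.23e-07 was the smallest of all 105661 probe sets. With adjustment over all of them it did not pass (limma adjusted p = 0.0659). Its knock-in values lay under the 5th percentile of their arrays, so the size of the difference is not exact.

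Probe set 10532129 lay the other way. It was at 6.65, 6.66 and 7.14 on SNP and 6.88, 7.05 and 7.39 on wtKI, against 5.63, 5.63 and 5.47 on KO and 5.59, 5.33 and 5.85 on WT. The knock-in arrays were above all others by 1.38 ± 0.17 (95% interval 1.00 to 1.76), rank 5 of all probe sets by p (8.30e-06) and likewise short of the threshold (limma adjusted p = 0.154). Probe set 10532130 was at 6.97, 5.83 and 5.86 on SNP and 4.91, 5.72 and 5.20 on wtKI, against 4.27, 4.35 and 4.82 on KO and 4.66, 4.22 and 5.95 on WT. Its difference was 1.04 ± 0.33 (limma adjusted p = 0.457), with overlap through WT 3, and 0.80 without KO 1 and SNP 1 (limma adjusted p = 0.389). Probe set 10532127 was at 6.14, 6.54 and 6.61 on SNP and 6.28, 5.93 and 6.27 on wtKI, within the range of WT. The remaining 2 differed less, 10532127 by -0.39 ± 0.18 and 10532125 by -0.31 ± 0.29 (limma adjusted p = 0.555 and 0.753). The last difference was -0.11 without KO 1 and SNP 1.

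Of the 11 probe sets of both genes 2 did not overlap between the 6 knock-in and the 6 other arrays, where 0.642% of all did not, and 3 had an unadjusted p under 0.05, where 9.11% of all had. No probe set of the table passed in this comparison with limma (0%). Exact permutation over the arrays gave p = 0.00216 for 10532126 and for 10532129 (two-sided, the smallest that 6 against 6 arrays allow) and p = 0.0281 for 10532130. Without KO 1 and SNP 1 the first 2 remained at the smallest exact p of 5 against 5 arrays (p = 0.00794), and 10532130 had exact p = 0.0952. The grouping of the arrays was known from earlier results of these data, so these p-values describe it. Leaving out WT 1, whose value of 10532126 was the lowest of the WT arrays, brought that probe set past the threshold (-3.18, limma adjusted p = 0.0306), as did a term for sex (-3.16, limma adjusted p = 0.0267). Among male arrays alone, 4 knock-in and 5 others, the differences of 10532126 and 10532129 were -3.03 and 1.30, and among the 2 female knock-in arrays and the female WT array they were -3.08 and 1.38. For 10532130 they were 1.43 among males and -0.49 among females.

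Probe sets 10532126 and 10532129 were set against each other because they had the smallest p of Gfi1 in the knock-in comparison. This pair was chosen after its values were seen, so a gap between the knock-in and the other arrays was set by the choice and only describes the values. Because both values come from the same array, their difference is unchanged by a shift that is equal for all probe sets of an array. Processing that acts differently on dim and bright probe sets can still change it. Signal of 10532126 minus that of 10532129 lay between -4.62 and -2.82 on the knock-in arrays (mean -3.83 ± 0.68, SD, n = 6) and between -0.51 and 1.11 on the KO and WT arrays (mean 0.57 ± 0.60, SD, n = 6). A test of each probe set against the others of its gene (limma diffSplice, adjusted over the 96103 probe sets of genes with more than 1) called 3 of the 5 Gfi1 probe sets and 0 of the 6 Gfi1b probe sets in this comparison, where 0.312% of all were called. Relative to the rest of Gfi1, 10532126 was lower in the knock-ins by -3.45 ± 0.30 (limma adjusted p = 1.52e-10), 10532129 higher by 2.05 ± 0.30 (limma adjusted p = 4.73e-05) and 10532130 higher by 1.62 ± 0.30 (limma adjusted p = 0.00248). This test pools the spread over all probe sets of a gene, treating probe sets of the same arrays as independent, so its p-values can be too small. The 3 called are those in the table through the groups where they were high. The count was also 3 with each array left out in turn. The rest of the gene includes 10532126 for the other probe sets, and with that probe set left out, a check chosen after its values were seen, 10532129 was higher by 1.27 ± 0.30 (limma adjusted p = 0.0451) and 10532130 by 0.81 ± 0.30, which did not pass (limma adjusted p = 0.481). Of 11327 genes with more than 1 probe set, 11 had probe sets called in both directions, Gfi1 among them. The span from its lowest to its highest probe set difference was 4.40, the third largest of these genes, whose median span was 0.84. Gfi1b had a span of 0.45.

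In each knock-in by itself 10532126 lay below and 10532129 above all WT arrays. In wtKI, 10532126 was -2.79 ± 0.40 and 10532129 1.52 ± 0.24 from WT, and in SNP they were -2.39 ± 0.40 and 1.23 ± 0.24 from WT, none passing over all probe sets (limma adjusted p from 0.246 to 0.54), where 0.00189% of all passed in wtKI and 0% in SNP. Both comparisons share the WT arrays. Against the rest of the gene, 10532126 passed in both (limma adjusted p = 7.73e-06 in wtKI and 3.08e-05 in SNP), where 0.0812% and 0.415% of all probe sets passed, and 10532129 passed in wtKI (limma adjusted p = 0.0148) and not in SNP (limma adjusted p = 0.0865). Set against KO, 10532126 was -3.65 ± 0.40 in wtKI and -3.25 ± 0.40 in SNP. The first passed over all probe sets (limma adjusted p = 0.0489), 1 of the 11 where 0.00568% of all passed, and the second did not (limma adjusted p = 0.0817), 0 of 11 where 0.00189% of all passed. That call was lost in 18 of the 21 alternative settings that tested 10532126, among them 11 of the 12 that leave out 1 array, with WT 1 the exception. The difference itself lay between -4.22 and -3.37 in these settings, with limma adjusted p from 0.00707 to 0.675.

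The series asked what the variant form changes, which SNP against wtKI addresses, and the Gfi1 and Gfi1b probe sets did not separate these groups. Of the 11, 6 were higher in SNP and 5 lower, limma called 0 of them and 0.00284% of all (0 at an unadjusted p under 0.05, where 7.61% of all probe sets were), and 1 did not overlap, where 13.1% of all did not. That probe set was 10532130, 0.94 ± 0.47 higher in SNP (95% interval -0.09 to 1.98, limma adjusted p = 0.657) and 0.57 higher when KO 1 and SNP 1 were left out. For 10532126 the interval of the difference ran from -0.50 to 1.30, and for 10532129 from -0.83 to 0.25. Probe set 10532125 was at 8.35, 9.87 and 9.96 on SNP, against 9.85, 9.98 and 9.74 on wtKI, with SNP 1 the lowest of all 12 arrays (-0.46 ± 0.41, limma adjusted p = 0.757). Its difference turned to 0.06 without KO 1 and SNP 1. At the gene level the differences were 0.04 ± 0.21 for Gfi1 and 0.07 ± 0.18 for Gfi1b, with 95% intervals of -0.43 to 0.50 and -0.32 to 0.45. Differences inside these intervals are not excluded, and with 3 arrays per group larger ones could also fail to pass over all genes.

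Gfi1b was slightly higher in KO than in WT on all of its probe sets, without passing, and so it was in both knock-ins. All 6 were higher in KO, by 0.08 to 0.96 with a median of 0.81, while 44.6% of all probe sets were higher and their median was -0.05 (limma adjusted p of the 6 from 0.955 to 0.992). All 6 were also above WT in wtKI (median 0.33) and in SNP (median 0.27), where 47.6% and 42.5% of all probe sets were higher. These comparisons share the WT arrays. Probe sets of the same gene on the same arrays are also not independent, so counting all 6 against the share of all probe sets only describes them. The median in KO includes 10481305 and 10481306 (0.96 and 0.88), whose differences rested on KO 1. The gene value of Gfi1b differed less, by 0.43, and by 0.33 without KO 1 and SNP 1. Probe set 10481310 was at 7.56, 8.0 and 7.39 on KO, against 6.57, 7.18 and 6.93 on WT. All KO arrays were above all WT arrays, by 0.75 ± 0.27 (unadjusted p = 0.0201, limma adjusted p = 0.955). Probe set 10481309 was at 5.89, 6.70 and 6.42 on KO, against 5.46, 5.65 and 5.21 on WT, also without overlap, and differed by 0.90 ± 0.34 (unadjusted p = 0.0236, limma adjusted p = 0.955). No WT array reached 6.14 for it, so this difference was partly set by its presence in the table. Without KO 1 and SNP 1 the differences of 10481310 and 10481309 were 0.80 and 1.12, while that of 10481307 turned to -0.11.

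The differences of 10481305 and 10481306 in KO rested on 1 array. Probe set 10481305 was at 8.61 on KO 1 and 6.20 and 6.50 on KO 2 and KO 3, against 6.27, 6.00 and 6.15 on WT. Probe set 10481306 was at 8.25, 6.61 and 6.30 on KO, against 6.24, 5.91 and 6.38 on WT. KO 1 stood out in both. On SNP they were at 6.37, 6.16 and 6.53 and at 6.71, 6.31 and 6.11, and on wtKI at 6.23, 6.07 and 6.63 and at 6.45, 6.44 and 6.65. Their differences of 0.96 ± 0.52 and 0.88 ± 0.44 dropped to 0.21 and 0.28 without KO 1 and SNP 1. The other 4 Gfi1b probe sets did not show this step. Probe set 10481307 was at 6.56, 6.29 and 6.04 on SNP, 6.39, 6.73 and 6.61 on wtKI, 6.71, 5.92 and 6.38 on KO and 6.57, 6.15 and 6.05 on WT. Probe set 10481311, the brightest of Gfi1b, was at 8.34, 7.96 and 8.13 on SNP, 7.71, 7.76 and 8.27 on wtKI, 8.42, 8.02 and 8.05 on KO and 8.20, 7.50 and 7.76 on WT. The groups overlapped in both. In the knock-ins 10481309 was at 5.46, 6.04 and 6.36 on SNP and 5.40, 6.11 and 6.35 on wtKI. Likewise 10481310 was at 7.89, 7.31 and 7.39 on SNP and 7.21, 7.16 and 7.62 on wtKI.

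Markers of cells that are known for Gfi1b moved with KO 1 in part. The 10 measured erythroid markers had a median 1.21 above the WT mean on KO 1, with 8 of 10 higher, and -0.30 and 0.05 on KO 2 and KO 3. The globin Hbb-b1 was at 10.31 on KO 1 and at 5.92 and 5.71 on KO 2 and KO 3, against 6.91, 5.90 and 8.80 on WT. SNP 1 had a larger erythroid median (3.38, 10 of 10 higher) with 10481305 at 6.37 and 10481306 at 6.71. The 4 measured megakaryocyte markers had medians of 0.62, 0.46 and 0.28 above the WT mean on KO 1 to KO 3, and of 0.08 to 0.52 on the 6 knock-in arrays. Late neutrophil markers, 12 measured, had medians of -0.40, -1.09 and -1.31 on KO 1 to KO 3, against -0.07, -0.36 and 0.47 on WT 1 to WT 3. Mast cell and basophil markers, 7 measured, had medians of 1.25, 1.02 and 1.05 on KO 1 to KO 3, and 1.55 on wtKI 3. The part of these cell types in the Gfi1b values was not tested.

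As a gene, Gfi1b was at 6.77, 6.48 and 6.43 on KO, against 6.26, 6.02 and 6.11 on WT, a difference of 0.43 ± 0.18 without overlap (95% interval 0.05 to 0.82, limma adjusted p = 1.00), and 0.33 without KO 1 and SNP 1. It was at 6.64, 6.33 and 6.47 on SNP and 6.27, 6.31 and 6.66 on wtKI. The order of its group means was KO (6.56 ± 0.18), SNP (6.48 ± 0.15), wtKI (6.41 ± 0.22) and WT (6.13 ± 0.12; SD, n = 3 each). Gfi1 had the same order, with KO at 6.56 ± 0.22, SNP at 6.24 ± 0.26, wtKI at 6.20 ± 0.15 and WT at 5.90 ± 0.31. Its gene value followed 10532125 on the KO arrays and 10532127 on the SNP arrays, which limits what this order compares. The knock-ins carry human GFI1 on a mouse array, so the Gfi1 order does not rank transcript levels. No pair of neighbours in either order passed in the limma fit (adjusted p from 0.516 to 1.00), though Gfi1b in wtKI did not overlap WT. Between the knock-ins and the other arrays Gfi1b did not differ detectably (0.10 ± 0.12), and its probe sets lay within -0.29 and 0.16.

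The genes whose values were most like those of Gfi1 over the 12 arrays were Slc35f2, Calm2, Sema6b, Vamp1 and Gdpd1, with Pearson correlations from 0.868 to 0.821. Calm2 encodes calmodulin, a calcium sensor, Sema6b a semaphorin and Vamp1 a vesicle fusion protein. For Gfi1b they were Maml2, a coactivator of Notch, the phosphate transporter Slc20a1, Osbpl5, the TGF-beta receptor Tgfbr2 and Tra2a, a splicing regulator, with correlations from 0.937 to 0.890. All arrays enter these values, KO 1 and SNP 1 included, and over the other 10 they were 0.835 to 0.921 and 0.814 to 0.928. Single probe sets most like 10532126 belonged to Impdh1, Snx1 and Cep63 (0.917 to 0.902), and those most like 10532129 to Lypd6, Ankrd16 and Cep135 (0.930 to 0.917). Both probe sets were chosen for this after their values were seen.

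Corepressor genes, 14 of 16 listed being measured, held no member that passed in KO against WT or in SNP against wtKI. In KO 5 were higher and 9 lower (median -0.06, with -0.02 over all genes), and Phf21a, a subunit of the Kdm1a complex, Suv39h1, a histone methyltransferase, and Hdac2 had the largest differences (-0.52 ± 0.21, -0.50 ± 0.36 and -0.34 ± 0.22, all with limma adjusted p = 1.00). In SNP against wtKI 3 were higher and 11 lower (median -0.33, with -0.02 over all genes). Hdac3, Kdm1a and Suv39h1 had the largest differences there (-1.06 ± 0.52, -0.82 ± 0.43 and -0.64 ± 0.36, limma adjusted p from 0.552 to 0.562). The members' median was -0.64, -0.15 and -0.27 from the WT mean on SNP 1 to SNP 3, so SNP 1 was the lowest. Without KO 1 and SNP 1, a check of these lists added after their values were seen, 2 were higher and 12 lower with a median of -0.10, and Hdac3, Kdm1a and Suv39h1 differed by -0.48, -0.18 and -0.15. In KO, Phf21a, Suv39h1 and Hdac2 then differed from WT by -0.58, -0.27 and -0.17. Limma called 0% of genes in both, with 4.72% and 8.85% at an unadjusted p under 0.05, against 1 and 2 of the 14 members.

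A probe set of Ajuba, a LIM protein described as a Gfi1 corepressor, was rank 7 of all probe sets in the knock-in comparison and is named after its values were seen. Its signal was at 3.27, 3.56 and 3.36 on SNP and 2.75, 3.12 and 3.96 on wtKI, against 7.01, 6.63 and 5.99 on KO and 4.16, 3.56 and 3.80 on WT. The KO arrays were above all others and the WT arrays overlapped the knock-ins (pooled difference -1.85, limma adjusted p = 0.218). This probe set reached 6.14 on KO 1 and KO 2 alone, so it is in the table through the group where it was high. Its step in KO and its rank were thus partly set by its presence and support nothing more. The other 2 Ajuba probe sets did not show such a step in KO, at 6.45 to 6.93 and 5.47 to 6.62 on KO, against 5.80 to 6.76 and 6.36 to 6.58 on WT. On the knock-in arrays they were at 5.10 to 6.18 and 5.81 to 6.73. As a gene, Ajuba differed by -0.69 ± 0.16 between the knock-ins and the others (limma adjusted p = 0.383).

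Genes described as Gfi1 targets, 13 of 18 measured, likewise held none that passed. In KO 7 were higher and 6 lower, with a median of 0.0027. Egr1, an immediate-early factor, was 0.98 ± 0.55 above WT, the E2F family repressor E2f6 -0.79 ± 0.81 and Irf8, which promotes the monocyte fate, -0.71 ± 0.25 (limma adjusted p from 0.888 to 1.00). In SNP against wtKI 5 were higher and 8 lower (median -0.27), with E2f6 at -1.33 ± 0.81, Hoxa9, a homeobox gene of progenitors, at -1.16 ± 0.73 and Ets1 at 0.95 ± 0.44 (limma adjusted p from 0.551 to 0.583). Without KO 1 and SNP 1 the median was -0.13 (4 higher, 9 lower), and these 3 genes differed by -0.14, 0.0089 and 0.34. In KO, Egr1, E2f6 and Irf8 then differed from WT by 1.20, -0.50 and -0.55.

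The nearest measured genes around Gfi1 on chromosome 5 were Glmn and Rpap2 on one side and Evi5 and Dipk1a on the other. None passed in the knock-in comparison at the gene level (-0.89 ± 0.43, -0.56 ± 0.32, -0.25 ± 0.18 and 0.60 ± 0.22, limma adjusted p from 0.44 to 0.627). Glmn was at 4.05 on SNP 1 and from 6.88 to 7.24 on the other 5 knock-in arrays, and Rpap2 at 5.23 on SNP 1. Without KO 1 and SNP 1 the differences of Glmn, Rpap2, Evi5 and Dipk1a were -0.35, -0.50, -0.38 and 0.66 (limma adjusted p from 0.241 to 0.265). Dipk1a was also -0.96 ± 0.31 in KO against WT (limma adjusted p = 0.802). Around Gfi1b on chromosome 2, Cel, Gtf3c5, Tsc1 and Spaca9 differed from WT in KO by -0.44 to 0.28 (limma adjusted p = 1.00 for each).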

How the data were processed

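RNA of 12 sorted GMP samples, 3 per group, was amplified with a NuGEN kit and hybridised to Affymetrix Mouse Gene 1.0 ST arrays, per the labels' protocols. The deposited values are log2 signals made by the authors with RMA, per the submitters' processing notes, but its version and settings are not known here. Each line is an exon-level probe set. Of 105661 lines, 98975 have 1 gene symbol in the platform annotation, 1703 several and 4983 none. Every line reaches at least 6.14 on some array, and whether a filter was set there is not given in the sources used here. The number of arrays limits the precision.

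Old symbols (1756) were updated through a RefSeq table (GRCm38.p6), giving 14199 genes, each summarised by median polish. Groups and replicate numbers came from the sample titles. R 4.3.3 and its package limma 3.58.1 served for the comparisons (1 linear model over all 12 arrays with moderated variances), adjusting p by Benjamini-Hochberg across every probe set or gene, and diffSplice tested a probe set against the rest of its gene. Errors with a difference are standard errors. Promoter sequences are RefSeq's. Fits were tested on simulated data.

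Named were every Gfi1 and Gfi1b probe set, the 3 corepressor and target genes with the largest difference in KO against WT and in SNP against wtKI, the 2 measured neighbours on each side and the 5 most alike genes. Other genes named are members of the marker lists or are said to be chosen after their values were seen. The corepressor, target and marker lists, the members, the pooled knock-in comparison and the alternatives were chosen with earlier results of these data known. Alternatives were median centring, quantile normalization, leaving out the dimmest 30%, the groups compared only, a trended robust prior, array weights, a replicate block, a sex term, 10 arrays without KO 1 and SNP 1, each array left out, other gene summaries and a fold threshold, and, chosen after the data were seen, the rest-of-gene test without 10532126 and the lists on 10 arrays.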

Additional observations from a re-analysis of the deposited data

How the results depend on the processing

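Of 357 repeats of the 27 main results under other settings, 330 stayed on their side of the threshold or, for counts, within 1.5 times the count. In 18 of these the sign turned without passing, among them 8 for the Gfi1 gene value between the knock-ins and the others (-0.31 to 0.07) and 4 for that between SNP and wtKI (-0.46 to 0.27). The count of Gfi1 and Gfi1b probe sets called between the knock-ins and the KO and WT arrays was 0. It became 2 with array weights (10532126 and 10532129), under which 27 of all 105661 probe sets passed, against 0 without the weights. With a sex term the count was 1, and with single arrays left out it was 0 to 1. Between wtKI and KO it was 1, and became 0 with median centring, quantile normalization, the groups compared only, the trended robust prior, the sex term and the 10 arrays, 0 with the dimmest 30% left out, where 10532126 was not tested, and 0 to 1 with single arrays left out. Between wtKI and WT it was 0 and became 1 with array weights, under which 21 of all probe sets passed, against 2 without. The 3 probe sets called against the rest of Gfi1 became 0 when the dimmest 30% were left out, which removes those probe sets from the test. With 10532126 left out of the gene, an alternative chosen after seeing the data, the count was 1 (10532129), where 298 of 96102 probe sets were called. The Gfi1 gene value in KO against WT passed with array weights (0.78, limma adjusted p = 0.0174), with which 493 genes passed in all, against 0 without. That value followed different probe sets on the KO arrays and on most WT arrays. In the exact permutation test 10532130 fell short on the 10 arrays (0.70, exact p = 0.0952). The causes were not tested. With the replicate number as a block, the wtKI against KO call was lost (0 called) and no other of these calls changed. The sample titles do not say whether the numbers pair the samples, and weak correlations cannot exclude it. Same-numbered arrays of different groups had correlations of -0.10 to 0.20 between their deviations, 2 of 18 of them over 0.1. The highest was between SNP 1 and KO 1, and 2 of 12 arrays correlated best with their own number. The difference of 10532126 between the knock-ins and the others lay between -3.21 and -2.88 over the 19 alternatives that tested it, with limma adjusted p from 0.0262 to 0.405, and that of 10532129 between 1.30 and 1.49. Their knock-in or mouse-allele values are near background, which limits the exactness of both sizes.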

Other observations

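No effect of the variant differed detectably from the effect of the knock-out on any of the 11 probe sets. The difference between SNP minus wtKI and KO minus WT ran from -1.02 ± 0.62 for Gfi1b probe set 10481306 to 1.40 ± 0.66 for Gfi1 probe set 10532130 (SE, limma adjusted p = 0.997 for each).

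The value of 10532129 on KO 1 and KO 2 was equal in every digit of the table. These arrays shared 28 equal values in all, 0.0265% of probe sets, and no pair of arrays shared more than 0.0511%.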
